A study of Mus musculus with 8 samples.

Results

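The amacrine and horizontal cell genes followed here were 10 genes that are used to recognise the lateral interneurons of the retina: Calb1, Calb2, Lhx1, Onecut1, Onecut2, Gad1, Gad2, Tfap2a, Tfap2b and Slc32a1. Their probes were found through the accession that the array files give for each probe, which yielded 16 of the 56605 probes of the array, for 10 of its 22911 named genes. Whole retinas of aged mice, between 46 and 55 weeks old by the sample labels, were hybridized to 8 one-color Cy3 arrays, 4 with RNA labelled as from homozygous Mrp4 knockout mice and 4 with wild-type RNA. Per the methods the knockout line had a C57BL/6J background, no promoter or tissue limit of the knockout is given, and the retinas came from 3 mice, which may mean 3 pooled for each sample, though the wording does not say so outright. The labels name no further allele and no treatment, and the methods give an anesthetic mixture of medetomidine, midazolam and butorphanol for all procedures. The p-values measure the spread between these samples.

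Horizontal cells lie along the outer plexiform layer and feed inhibition back onto photoreceptor terminals. Amacrine cells lie along the inner plexiform layer, release GABA or glycine, and shape the signals that bipolar cells pass to ganglion cells. Both classes use calcium-binding proteins that serve as histological markers, are set up by a small group of transcription factors, and load their inhibitory transmitter into vesicles through a common transporter. MRP4, the product of Abcc4, is an efflux pump that vascular endothelial cells, among others, carry.

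All 10 genes were measured. Each of the 16 probes stood on the array as 1 spot, was well above background on all 8 arrays, and was neither saturated nor marked as an outlier on any of them. Their background-subtracted signals before normalization ran from 36.9, for the dimmest probe of Tfap2a, to 35394, for Slc32a1. Signals of different probes depend on the probe as well as on the RNA, so genes are not ranked against each other. Several of the genes are also expressed by other retinal neurons, Calb2 in ganglion cells for example, and in whole retina fewer cells of a type cannot be told apart from less RNA per cell.

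The values are log2 signals after quantile normalization over 37085 probes, those well above background throughout the measured arrays of 1 or both genotypes. The test was limma's moderated comparison, and a call required a 1.5-fold change or more together with a Benjamini-Hochberg adjusted p under 0.05 over the 37085 probes. The 75th percentile of the signal lay between 678 and 1082, and its lowest values, 678 and 706, came from array 2 of those labelled Mrp4-null and the third wild-type array. Both are called dim below, but the fourth wild-type array was next at 781 and had the lowest share of probes well above background, 66.0%. All arrays shared 1 slide on which each genotype filled its own row, so that row and genotype cannot be told apart. Abcc4, the targeted gene, was 3.92 higher on the log2 scale on the arrays labelled Mrp4-null (standard error 0.14, adjusted p = 1.36e-05 from limma), though the label names its knockout. The paper likewise lists this probe first among those upregulated in the knockout. The directions given here follow the labels.

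None of the 16 probes was called changed between the genotypes, against 0.545% of all probes tested (0.256% higher and 0.289% lower), and without the fold limit the counts were 0 and 0.601%. None had an unadjusted p under 0.05 from limma, where 6.46% of all probes did, and the local pooled error test called 0 of them as well, beside 0.626% of all probes. The arrays of the genotypes overlapped for every one of the 16 probes, beside 4.79% of all probes without overlap. At shares this low, counts of 0 among 16 probes do not set the members apart from probes at large. The fitted log2 fold changes were above 0 for 8 probes and below 0 for 8, beside 46.8% above 0 over all probes. With each gene represented by its leading probe, the one with the highest mean signal, 5 genes were on either side of 0 and the median was 0.0012, beside -0.0099 over the leading probes of all 16093 named genes. The 95% intervals of all 16 probes lay between -0.53 and 0.51 and thus within a 1.5-fold change either way, as did those of 77.2% of all probes.

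**Figure D1:**
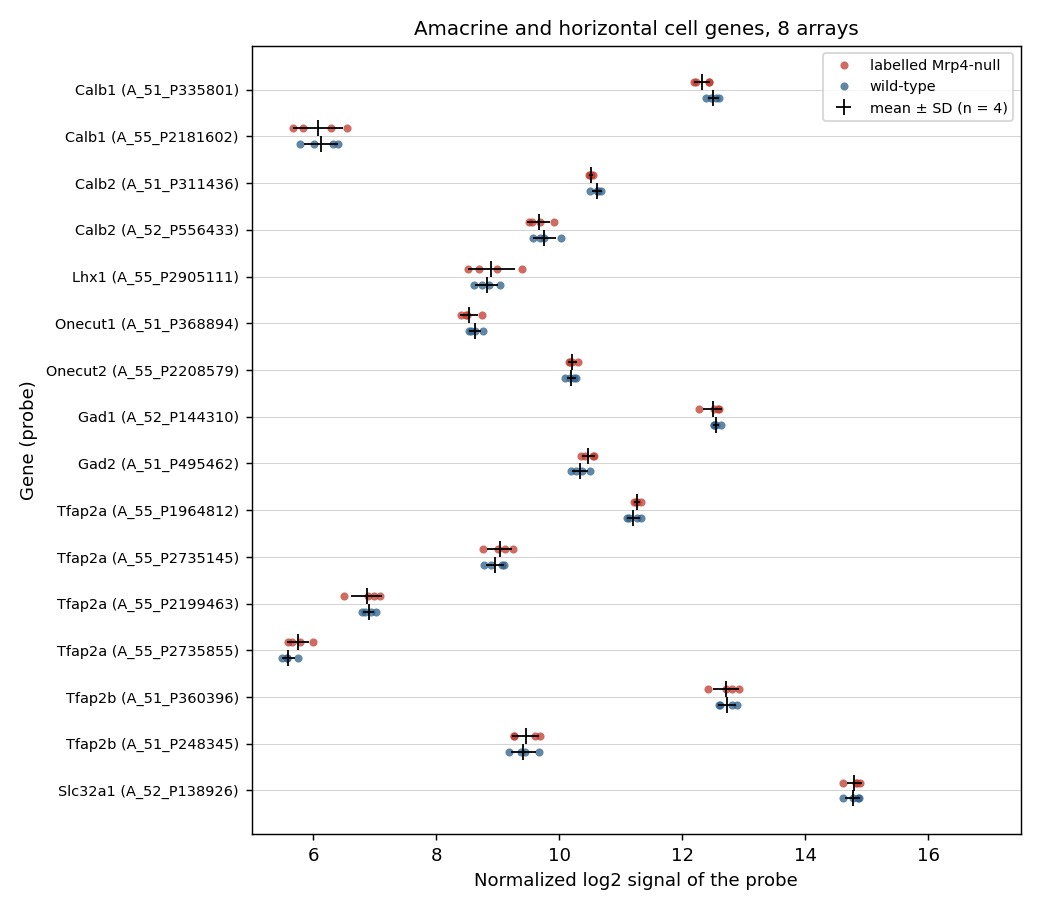
Normalized log2 signal (horizontal axis) of the 16 probes of the 10 genes on each array, with points for the 4 arrays labelled Mrp4-null and the 4 wild-type arrays and bars for the mean ± SD of each genotype. The points of the genotypes overlap in every row, and the distance between rows reflects probes as well as genes.

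Calb1 and Calb2 encode calbindin and calretinin, cytosolic calcium-binding proteins. The leading Calb1 probe, A_51_P335801, read 12.43, 12.19, 12.23 and 12.44 under the Mrp4-null label, against 12.48, 12.55, 12.39 and 12.60 in wild-type. The lowest wild-type array lay below the 2 highest arrays of the other genotype, so the overlap was narrow. This was the largest difference among the 10 leading probes, at -0.18 on the log2 scale (limma, standard error 0.09, 95% interval -0.39 to 0.030, adjusted p = 0.884). In linear terms the signal was 0.882 times that of wild-type, with an interval from 0.762 to 1.02. The second Calb1 probe was dim, between 5.67 and 6.54, and its log2 fold change was -0.043 (standard error 0.22).

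The leading Calb2 probe read 10.50, 10.55, 10.52 and 10.49 under the Mrp4-null label, against 10.64, 10.69, 10.62 and 10.50 in wild-type. The fourth wild-type array fell among those labelled Mrp4-null, while the other 3 wild-type arrays lay above all of them. The log2 fold change was -0.094 (standard error 0.07, 95% interval -0.26 to 0.071, adjusted p = 1.00 from limma). The other Calb2 probe, at 9.51 to 10.02, gave -0.094 as well, with a standard error of 0.13.

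Lhx1, a LIM homeodomain factor, and Onecut1 and Onecut2, factors of the cut-homeodomain family, are transcription factors of horizontal cells. Lhx1 is needed for these cells to settle in their layer, and the Onecut factors for them to form. Lhx1 read 8.70, 9.40, 8.99 and 8.51 under the Mrp4-null label, against 8.75, 8.62, 9.05 and 8.86 in wild-type. The second array labelled Mrp4-null was the highest of all, the fourth the lowest, and the wild-type arrays lay between them. Its log2 fold change of 0.080 had the widest interval of any leading probe, from -0.35 to 0.51 (standard error 0.19, adjusted p = 1.00 from limma).

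Onecut1 was at 8.51, 8.75, 8.40 and 8.48 under the Mrp4-null label and at 8.54, 8.57, 8.77 and 8.64 in wild-type, a log2 fold change of -0.092 (standard error 0.10, 95% interval -0.32 to 0.13). Onecut2 was at 10.15, 10.31, 10.21 and 10.18 against 10.18, 10.24, 10.28 and 10.10, a log2 fold change of 0.015 (standard error 0.08, 95% interval -0.16 to 0.19). For Onecut1 the genotypes overlapped through the second array labelled Mrp4-null, the other 3 lying below all wild-type arrays, and for Onecut2 the arrays were interleaved. Limma gave both genes an adjusted p of 1.00.

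Gad1 and Gad2 encode the glutamate decarboxylases GAD67 and GAD65, which make GABA, and Slc32a1 encodes VGAT, the carrier that fills synaptic vesicles with GABA and glycine. RefSeq promoter windows in GRCm38.p6, from 250 bases before to 50 after the gene start, were at hand for 7 of the 10 genes. Those of the 3 transmitter genes are printed because Tfap2a and Tfap2b, both members, encode AP-2 factors, whose motif GCCNNNGGC, which reads the same on both strands, is in capitals. Gad1 lies at chr2:70561879-70562178 (plus strand), Gad2 at chr2:22622077-22622376 (plus strand) and Slc32a1 at chr2:158610508-158610807 (plus strand).
Gad1: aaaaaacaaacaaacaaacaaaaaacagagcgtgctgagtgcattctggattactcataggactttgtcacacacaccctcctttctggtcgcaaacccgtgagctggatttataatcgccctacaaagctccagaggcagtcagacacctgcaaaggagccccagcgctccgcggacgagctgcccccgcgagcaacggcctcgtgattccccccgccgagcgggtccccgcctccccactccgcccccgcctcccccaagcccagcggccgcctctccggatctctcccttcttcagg
Gad2: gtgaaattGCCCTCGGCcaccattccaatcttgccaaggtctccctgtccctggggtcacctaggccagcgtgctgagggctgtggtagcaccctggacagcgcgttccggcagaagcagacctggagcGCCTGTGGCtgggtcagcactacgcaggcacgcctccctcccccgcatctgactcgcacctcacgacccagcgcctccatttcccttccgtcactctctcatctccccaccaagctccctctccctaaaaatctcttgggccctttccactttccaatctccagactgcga
Slc32a1: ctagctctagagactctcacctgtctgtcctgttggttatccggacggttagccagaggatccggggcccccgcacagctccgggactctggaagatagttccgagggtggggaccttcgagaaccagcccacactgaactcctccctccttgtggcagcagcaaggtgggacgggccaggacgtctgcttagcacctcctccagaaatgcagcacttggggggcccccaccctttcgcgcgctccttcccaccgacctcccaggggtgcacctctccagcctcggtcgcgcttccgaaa
These letters occurred at 2 places in the Gad2 window and at 0 in those of Gad1 and Slc32a1, and 16.6% of all 32851 promoter windows of this length held at least 1 match. A match describes the sequence and is not a bound site.

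Gad1 read 12.59, 12.27, 12.51 and 12.60 under the Mrp4-null label, against 12.54, 12.63, 12.51 and 12.52 in wild-type. The second array labelled Mrp4-null stood lowest and the other 7 lay within the range from 12.51 to 12.63. The log2 fold change was -0.056 (standard error 0.09, 95% interval -0.27 to 0.16, adjusted p = 1.00 from limma).

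Gad2, the only leading probe of the transmitter genes with a fitted difference above 0.1, was at 10.57, 10.35, 10.42 and 10.56 against 10.28, 10.49, 10.37 and 10.19 in wild-type. The second wild-type array lay above 2 of the arrays labelled Mrp4-null and the third above 1. The log2 fold change was 0.14 (standard error 0.09, 95% interval -0.075 to 0.35, adjusted p = 1.00 from limma).

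Slc32a1 was at 14.85, 14.62, 14.83 and 14.89 under the Mrp4-null label and at 14.77, 14.87, 14.61 and 14.86 in wild-type. Each genotype had 1 array near 14.6 and 3 between 14.77 and 14.89. The log2 fold change was 0.019 (standard error 0.10, 95% interval -0.20 to 0.24, adjusted p = 1.00 from limma).

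Tfap2a and Tfap2b encode AP-2α and AP-2β, transcription factors of amacrine cells that also act in developing horizontal cells. The leading probe of Tfap2a was at 11.27, 11.22, 11.32 and 11.25 under the Mrp4-null label and at 11.10, 11.14, 11.33 and 11.27 in wild-type, a log2 fold change of 0.055 (standard error 0.08, 95% interval -0.13 to 0.24). Its 3 further probes, between 5.50 and 9.24, gave log2 fold changes of 0.073, -0.032 and 0.16, of which the last, from the dimmest of the 16 probes, had an interval from -0.084 to 0.41. The 4 probes of Tfap2a therefore lay on both sides of 0, and limma gave each of them an adjusted p of 1.00.

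The leading probe of Tfap2b was at 12.81, 12.42, 12.71 and 12.92 against 12.62, 12.81, 12.60 and 12.89 in wild-type, a log2 fold change of -0.013 (standard error 0.12, 95% interval -0.30 to 0.27). The second probe was at 9.26, 9.61, 9.68 and 9.27 against 9.66, 9.18, 9.44 and 9.38, a log2 fold change of 0.040 (standard error 0.14). Over the 9 pairs of probes of the same gene, from Calb1, Calb2, Tfap2a and Tfap2b, the difference between the fold changes of a pair was between -0.19 and 0.10 on the log2 scale, and the smallest p was 0.229 (exact two-sided permutation test over arrays, adjusted p = 0.964 over the 9 pairs, smallest p possible 0.0286).

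**Figure D2:**
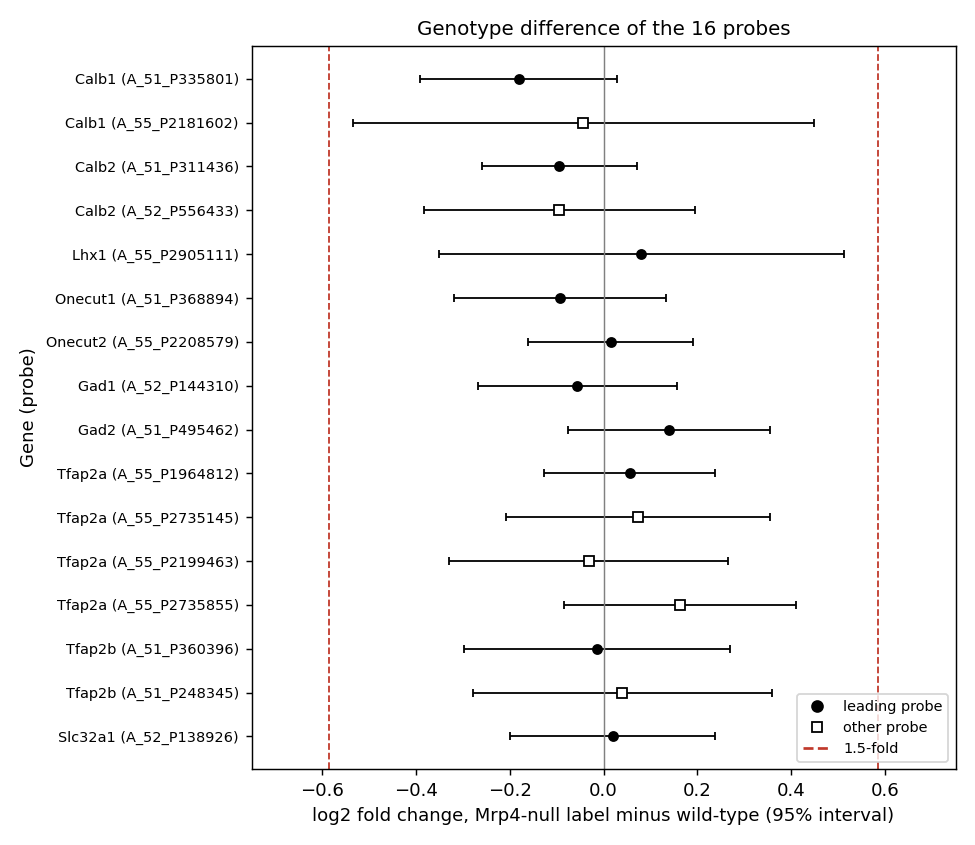
Log2 fold change of each of the 16 probes, arrays labelled Mrp4-null minus wild-type (horizontal axis), with the 95% interval from limma; filled circles are leading probes, open squares other probes, and dashed lines a 1.5-fold change. Every interval spans 0 and ends inside the dashed lines, the widest being that of the dim Calb1 probe, from -0.53 to 0.45.

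The probes differed in how far arrays of the same genotype lay apart. The residual SD within genotypes was 0.059 for the leading Calb2 probe and 0.073 for Onecut2, and it was 0.30 for Lhx1 and 0.35 for the dim Calb1 probe. The first pair were at the 3.38th and 7.02nd percentile of all probes tested, and the other pair at the 77.5th and 84.2nd. The median over the 16 probes was 0.14, beside 0.19 over all probes tested.

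Of the 16 probes, 13 had their highest or lowest value of the genotype on array 2 of those labelled Mrp4-null and 10 on the third wild-type array, both dim. The brightest wild-type array, the second, was the highest or lowest for 10 as well, and the other arrays for 5 to 8. The share over all probes was not counted, so these counts do not tie such extremes to dim arrays. On the second array labelled Mrp4-null, Lhx1 was 0.67 above the mean of the other 3 arrays with that label, Onecut1 0.29 above and Onecut2 0.13 above, each of them the highest of its genotype. On the third wild-type array the same genes were 0.30, 0.18 and 0.11 above the mean of the other wild-type arrays, again the highest of their genotype. The leading probes of Calb1, Gad1, Tfap2b and Slc32a1 had the opposite sign on both arrays. On the second array labelled Mrp4-null they were at -0.18, -0.30, -0.39 and -0.24 relative to the other 3, and on the third wild-type array at -0.15, -0.051, -0.17 and -0.23. These 7 genes had the same signs when the arrays were shifted to the 75th percentile, normalized by cyclic loess or corrected with normexp. Among all probes tested, Lhx1 ranked at percentile 94.0 on array 2 of those labelled Mrp4-null and at 86.4 on the third wild-type array. The rest of the 7 lay between percentiles 16.1 and 77.4 on these arrays. Gad2 and the leading probe of Tfap2a were below the others on the first of these arrays and above them on the second. Over the 16 probes 12 had the same sign on both arrays, and over all probes tested 79.4% did. The part of signal strength in these deviations was not tested.

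**Figure D3:**
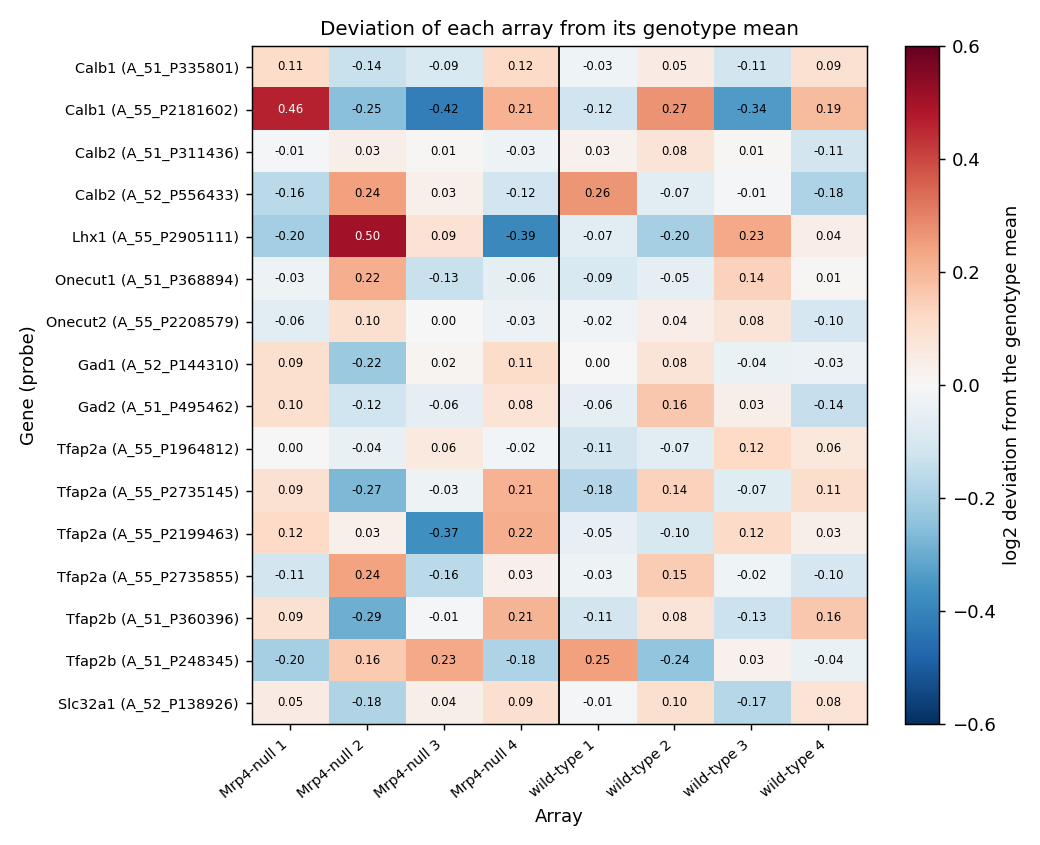
Deviation of each array (columns) from the mean of its genotype on the log2 scale for the 16 probes (rows), with red above and blue below the mean and the value printed in each cell. Lhx1, Onecut1 and Onecut2 are red on both dim arrays (Mrp4-null 2 and wild-type 3), where the leading probes of Calb1, Tfap2b and Slc32a1 and the Gad1 probe are below 0.

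Several of the small differences changed sign when 1 array was left out. Without the second array labelled Mrp4-null the log2 fold change was -0.088 for Lhx1, -0.017 for Onecut2, 0.019 for Gad1 and 0.084 for Tfap2b, each on the other side of 0. Other arrays did the same: Slc32a1 was at -0.012 without the fourth array labelled Mrp4-null and at -0.037 without the third wild-type array, Onecut2 at -0.018 and Tfap2b at 0.040 without the fourth wild-type array, and Tfap2b at 0.013 without the second. Onecut1 kept its sign but was at -0.17 without the second array labelled Mrp4-null, -0.049 without the third and -0.047 without the third wild-type array. Tfap2a kept its sign as well and was at 0.036 without the third array labelled Mrp4-null, and at 0.018, 0.033 and 0.095 without wild-type array 1, 2 and 3. Gad2 was at 0.093 without wild-type array 4. With both dim arrays left out, no probe was called, and Lhx1, Gad1 and Tfap2b were at -0.012, 0.0058 and 0.041.

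Further genes of these cells were followed through 5 lists with 57 genes, of which 53 had a probe tested. Limma called 1 of the 53 higher and 0 lower, beside 0.652% of named genes with any probe called, and the median log2 fold change of the leading probes was -0.0040. By unadjusted p under 0.05 the leading probes of 6 of the 53 passed, or 11.3%, beside 6.60% of all named genes. Among the 50 whose leading probe was well above background on all 8 arrays, which leaves out Ptf1a, 4 passed, or 8.00%, beside 6.17% of all named genes so chosen.

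The gene called was Slc18a2, which encodes the vesicular monoamine transporter VMAT2 that loads dopamine in dopaminergic amacrine cells. It read 10.11, 9.61, 10.10 and 10.15 under the Mrp4-null label, against 9.10, 9.03, 8.77 and 9.16 in wild-type. The genotypes did not overlap, and the dim array was the lowest in each. The log2 fold change was 0.98 (standard error 0.14, 95% interval 0.65 to 1.31, adjusted p = 0.0237 from limma), or 1.97-fold. Leaving out any array other than the second labelled Mrp4-null ended the call, with adjusted p = 0.0678 to 0.0888 from limma, while the log2 fold change stayed between 0.90 and 1.11. Without a filter on dim probes the call was lost as well (limma, adjusted p = 0.0657). Th, tyrosine hydroxylase of the same dopaminergic cells, was named after its values were seen and differed by 0.14 on the log2 scale (limma, standard error 0.11, adjusted p = 1.00), or by 0.055 without the second array labelled Mrp4-null. In Slc18a2 the first and second wild-type arrays, those with Xist well above background, were at 9.10 and 9.03. The other wild-type arrays were at 8.77 and 9.16.

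In the other lists of these cells limma called 0 genes. Among 7 tested genes of horizontal cells the median was 0.043, with Ptf1a, a factor that specifies both cell classes, at 0.82 and Septin4 at -0.092. Ptf1a was well above background on 2 of the 4 wild-type arrays and on all arrays labelled Mrp4-null, through which it was retained, and normexp correction gave 0.21 for it. Among 17 transcription factors of amacrine cells the median was -0.029, from Tfap2d at -0.40 to Neurod1 at 0.17. Tfap2d was dim, well above background on 3 of the 4 wild-type arrays, and normexp correction gave -0.13 for it. Among 9 genes that handle inhibitory transmitters the median was 0.046, from Gphn, the gephyrin scaffold of inhibitory synapses, at -0.084 to Slc6a13, a GABA transporter, at 0.49. Without the second array labelled Mrp4-null Slc6a13 was at 0.31, and without both dim arrays at 0.21.

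The 9 amacrine neuropeptides had a median of -0.055 and reached farther than the 10 marker genes. Penk, proenkephalin, read 11.95, 12.49, 12.06 and 11.30 under the Mrp4-null label, against 11.48, 11.03, 10.77 and 11.17 in wild-type. The fourth array labelled Mrp4-null lay below the first wild-type array and the other 3 above all wild-type arrays. The log2 fold change of 0.84 (limma, standard error 0.25, adjusted p = 0.392) missed the call, whereas the local pooled error test called it (adjusted p = 2.50e-05). Without both dim arrays the value was 0.54. Crh, corticotropin-releasing hormone, was at -0.65 (standard error 0.23, adjusted p = 0.565 from limma) with overlapping arrays.

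**Figure D4:**
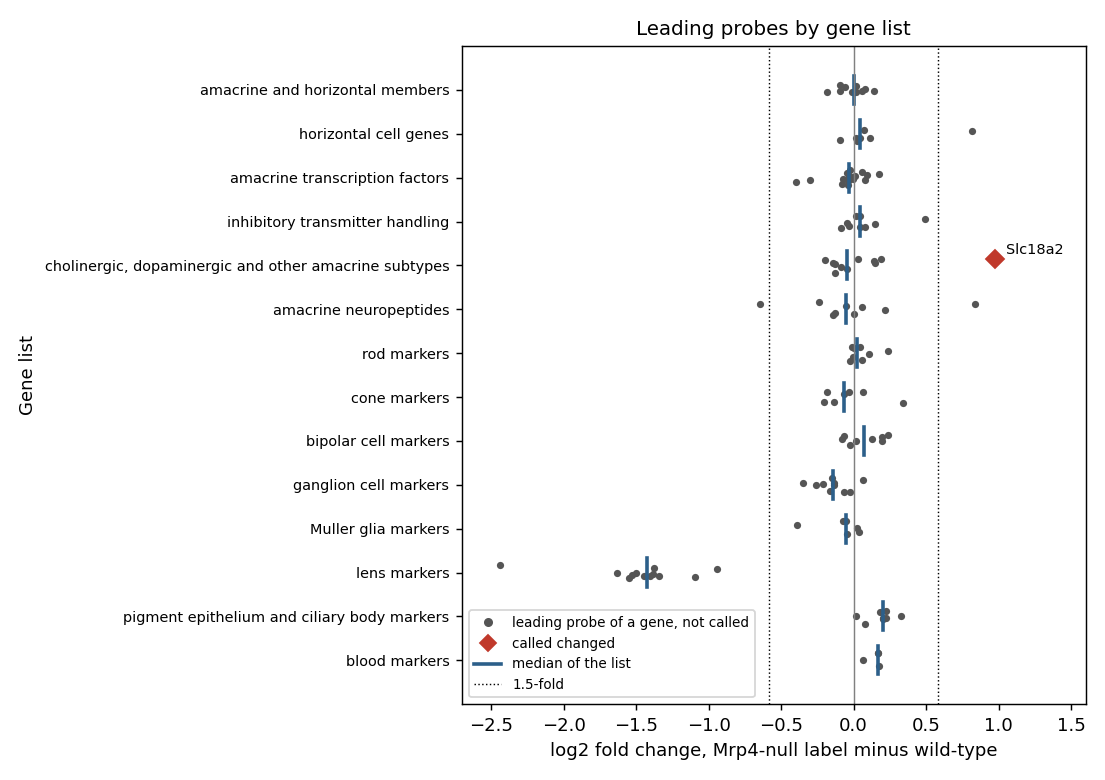
Log2 fold change of the leading probe of each gene (points, horizontal axis), arrays labelled Mrp4-null minus wild-type, by gene list, with the median of each list as a bar and dotted lines at a 1.5-fold change. The 10 members lie between -0.18 and 0.14, Slc18a2 is the only gene that limma called in these lists, and the 12 lens genes lie at -0.94 or below.

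Markers of other cells that the tissue could hold were read in the same fit, and limma called 0 of their genes. At an unadjusted p under 0.05 the leading probes of 14 of all 115 listed genes passed, or 12.2% beside 6.60% of all named genes (12 of 110 and 6.17% where the probe was well above background on all 8 arrays), those of amacrine and horizontal cells included. The local pooled error test called 11 lens genes lower and 0 genes of the other cell types in these marker lists, beside 0.758% of all named genes. The medians were 0.026 for 8 rod genes (Rom1 -0.027 to Sag 0.24), -0.063 for 7 cone genes (Pde6h -0.21 to Arr3 0.34), 0.072 for 8 bipolar cell genes (Isl1 -0.080 to Grm6 0.24), -0.14 for 10 ganglion cell genes (Pou4f2 -0.35 to Pou4f1 0.067) and -0.049 for 6 Muller glia genes (Aqp4 -0.39 to Glul 0.038). Pde6h was at -0.089 without the third array labelled Mrp4-null and at -0.32 without the second. The medians were 0.21 for 8 genes of pigment epithelium and ciliary body (Tyrp1 highest, at 0.33) and 0.17 for the 4 blood genes tested (Hba-a2 highest, at 0.18). With 1 array left out Tyrp1 ranged from 0.12 to 0.47 and Hba-a2 from 0.032 to 0.37. The 12 lens genes were all lower on average under the Mrp4-null label, with a median of -1.42 and the lowest value for Mip, an aquaporin of lens fibres. Only 2 of the 4 arrays labelled Mrp4-null had Mip well above background, and its fitted value of -2.44 (standard error 1.39) became -1.58 without the second and -3.84 without the fourth of them and -0.79 under normexp. Their mean log2 signal varied from 6.33 to 9.05 on the arrays labelled Mrp4-null and from 7.77 to 10.32 on the wild-type arrays, while the mean of the 10 member genes stayed within 11.19 to 11.26 on all 8 arrays.

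Calb1 lies on chromosome 4 and Calb2 on chromosome 8, the other members on chromosomes 1, 2, 9, 11, 13 and 18 (GRCm38.p6). The 3 tested genes on each side of every member in gene order, 60 genes with 97 probes in all, included 0 called genes, beside 0.545% of all probes called. An unadjusted p under 0.05 from limma was found for 4 of the 97 probes, beside 6.46% of all probes, and the fold changes ran from -0.72 to 0.48 on the log2 scale. Of the 4, 2 were among the 8 probes beside Calb1, with 1 each beside Lhx1 and Tfap2b. The probes beside Calb1 all lay below 0 (-0.72 to -0.0056, smallest adjusted p = 0.302 from limma), and those beside Calb2 all above 0 (0.031 to 0.16).

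The mean deviation of the 10 leading probes from the genotype mean was small on every array, between -0.047 on the first wild-type array and 0.025 on the second. The 5 named genes whose leading probes followed it most closely over the 8 arrays were Gm36371, Prdx4, Col9a1, Nudt7 and Sfxn3, with Pearson's r of 0.967 to 0.991 as a description. The arrays share 1 slide and their dim members, and these genes were picked as the highest of 16078 compared.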

How the data were processed

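The authors deposited Agilent Feature Extraction 11.0.1.1 output of 8 arrays, whose signal intensity had its background subtracted and a spatial trend removed per array, without normalization between arrays. The flags per spot that the authors deposited were used as given. A deposited table of values for the series held the mean processed intensity per probe, with outlier spots included. Control and outlier spots were left out, log2 intensities were averaged per probe, probes well above background throughout the measured arrays of 1 or both genotypes were kept (3 or more measured there, 2 or more in the other), and values were quantile-normalized as in the methods. The array files name mm9, so the RefSeq table of GRCm38.p6 served for names (32994 of 56605 probes matched), gene order and promoters. R 4.3.3 and limma 3.58.1 (lmFit, eBayes, genotype as the only term) were used, with Benjamini-Hochberg adjustment over 37085 probes. The methods' local pooled error (LPE) test was rewritten, with a spline of 10 degrees of freedom. When 200 of the 37085 probes were simulated with 2-fold changes, limma recovered 69.5% with 4 false calls, the local pooled error test 80.0% with 154. The simulated noise was normal and independent for each probe and array, without the deviations that probes of an array share. These rates therefore need not hold for the data, nor for changes of 1.5-fold. The members and lists were chosen with earlier results of these data known. Named genes were all members, the called genes of each list or otherwise its largest rise and fall, called neighbours, Abcc4 and the 5 genes most alike in pattern. Other scalings, filters, tests, thresholds, a block and omitted arrays were tried. The number of arrays limits the precision.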

Additional observations from a re-analysis of the deposited data

Results flagged for a closer look

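The 75th percentile of the processed signal stood apart for the second Mrp4-null array, at 678 beside 1000 to 1058 for the 3 further arrays with that label. Its gap to the nearest of them was 0.846 of the whole range, above Dixon's 95% limit for 4 arrays. The screen covered 36 groups of 4 arrays, the 16 probes, Abcc4 and this percentile in each genotype, and 1 group passed, where chance gives about 1 in 20.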

How the results depend on the processing

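In 21 alternatives 0 member probes were called, in 20 the median log2 fold change of the members stayed between -0.043 and 0.014, and all 10 genes were retained wherever they were filtered. Of 190 values of the leading probes under 19 alternatives, 14 had the other sign, all of them uncalled. With 1 array left out the ranges were -0.088 to 0.21 for Lhx1, -0.018 to 0.042 for Onecut2, -0.093 to 0.019 for Gad1, -0.081 to 0.084 for Tfap2b, -0.037 to 0.078 for Slc32a1, -0.23 to 0.071 for Isl1 and -0.044 to 0.25 for Pou4f1. Under normexp Onecut2 was at -0.0077 and Tfap2b at 0.011, and under cyclic loess Rom1 was at 0.037. Without both dim arrays Lhx1 was at -0.012, Gad1 at 0.0058, Tfap2b at 0.041, Hba-a2 at -0.0016 and Tyrp1 at -0.089. Other listed genes called numbered 0 without a filter on dim probes, 0 to 1 with 1 array left out, 13 under the local pooled error test (11.3% of 115, beside 0.758% of all named genes; 11 lens genes, Penk and Slc18a2) and 17 with any probe at an unadjusted p under 0.05 (14.8%, beside 7.90%), where 4 neighbours of members passed as well. Of 22 further fold changes, 15 moved by over 1.5 times or changed sign without 1 array, the median of the members among them. The 22 are that median and the values of the named list genes other than Slc18a2 and Th, which are described above. The cause was not tested. Over all probes limma made 202 calls, 117 to 188 with 1 array left out (131, 129 and 117 without wild-type arrays 2, 3 and 4) and 128 without both dim arrays. With the sample number as a replicate block 0 other listed genes and 71 probes in all were called, and Slc18a2 had adjusted p = 0.155 from limma. The deviations of arrays with the same number correlated at -0.29, -0.69, 0.034 and 0.41 over all probes, above 0.1 for the fourth pair but not for the other 3, so they were treated as sharing only a number.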
